A study of Homo sapiens with 4 samples.

Results

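The genes described are 2 hypoxia-inducible factor (HIF) subunits, *HIF1A* and *EPAS1*, and 6 genes known as HIF targets, *EGLN3*, *VEGFA*, *ADM*, *CA9*, *NDRG1* and *BNIP3*. They are 8 of the 58213 Ensembl gene IDs that all count files hold, and they were found by their symbols in GENCODE 29. The study sequenced RNA of U87MG, a human glioblastoma (GBM) cell line, and of R-U87MG, a line derived from it that is resistant to temozolomide (TMZ), the alkylating drug used against GBM. There were 4 libraries, 1 per group. In R-U87MG the siRNAs were a non-targeting control pool (si-NC) or a pool against HDAC6 (si-HDAC6), a cytoplasmic lysine deacetylase. In parental U87MG they were si-NC or siRNA against the long non-coding RNA *LINC00461* (si-*LINC00461*), for which the supplement of the study lists 1 target sequence. According to the methods of the study, TMZ was kept in the medium of the resistant line. Each line is an established culture, and how many clones R-U87MG came from is not given in the sources used here. The libraries held 12596072 to 20027866 fragments, and every number of fragments below was recovered from the deposited estimated counts. With 1 library per group, no difference has a replicate check, no p-value can be given, and the intervals cover counting error only.

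HIF is a pair of an alpha subunit, HIF-1α (*HIF1A*) or HIF-2α (*EPAS1*), and the beta subunit ARNT. When oxygen is present, prolyl hydroxylases of the EGLN family mark the alpha subunits, the VHL complex recognizes the mark, and the protein is degraded, so that HIF activity is set largely at the protein level and not by the alpha transcripts. Under low oxygen the pair binds short sequences with the core ACGTG or GCGTG and raises genes of glycolysis, blood vessel growth, acid export and mitophagy. Glioblastomas are known for poorly oxygenated zones in which these targets are high. Oxygen was not measured in these libraries, and HIF protein was not measured either.

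The cores were looked for in RefSeq promoter windows (GRCh38.p14), which run from 250 bases before a start site to 50 bases after it. Windows of 6 of the 8 genes were used. Of all 35116 windows, 21.4% held ACGTG, 36.5% held GCGTG and 48.4% held either, counting both strands. *BNIP3* had 2 matches of ACGTG, which are 1 palindrome read on both strands, and 4 of GCGTG. *CA9* had 1 match of ACGTG, and *ADM*, *EPAS1* and *HIF1A* had 1 match of GCGTG each, for *HIF1A* in 1 of its 2 windows. *EGLN3* had none in its window. The stretches around one match per gene are shown because these genes had very different levels in the 2 lines, and *HIF1A* is shown beside them as the gene that did not. They are written 5′ to 3′ on the strand of the gene, and capitals mark the core on either strand. They lie at chr10:131982041-131982069 (minus strand) for *BNIP3*, chr9:35673898-35673926 (plus) for *CA9*, chr11:10304960-10304988 (plus) for *ADM*, chr2:46297278-46297306 (plus) for *EPAS1* and chr14:61695297-61695325 (plus) for *HIF1A*.
BNIP3: gcgCACGCgccgCACGTGccaCACGCacc
CA9: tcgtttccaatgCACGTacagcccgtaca
ADM: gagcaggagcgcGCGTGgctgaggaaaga
EPAS1: gggcctgccggcGCGTGcccgcccacaca
HIF1A: tggctgagagcgGCGTGggctggggtggg
The match of *CA9* stood at position −18 from the start site, and the palindrome of *BNIP3* began at position −134. A match is a description of these letters and shows no binding.

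The siRNA targets were checked first. *HDAC6* had 296 fragments in R-U87MG si-NC and 67 in R-U87MG si-HDAC6, a log2 ratio of −1.74 (95% counting interval −2.16 to −1.36). *LINC00461* had 363 fragments in U87MG si-NC and 73 in U87MG si-*LINC00461*, a log2 ratio of −2.12 (−2.51 to −1.76). Both targets were lower in the library that carried their siRNA. Of the glioma and neural markers, *VIM*, *CD44* and *NES* were present in every library, with at least 441 fragments each, whereas *SOX2* and *S100B* had at most 4 and *GFAP* at most 13. *OLIG2*, a factor of the oligodendrocyte lineage, had 92 and 115 fragments in the R-U87MG libraries and 15 and 18 in the U87MG libraries. Of the blood cell markers, *PTPRC* and *CD3E* had at most 3 fragments in any library and *CD14* had 4 or 5. The 3 epithelial markers summed to between 2.30 and 4.22 CPM (fragments of the gene scaled to 1000000 fragments of the library).

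Across the 4 libraries, 7 of the 8 genes were low in both R-U87MG libraries and high in both U87MG libraries. For *EPAS1*, *EGLN3*, *VEGFA*, *ADM*, *CA9*, *NDRG1* and *BNIP3*, the higher R-U87MG library was at least 2-fold under the lower U87MG library in CPM. The same held for 1009 of 13369 genes with a mean of at least 1 CPM, which is 7.55%, and 10.7% of genes differed that far the other way. The 8 genes were chosen with earlier results of these data known, so the difference from all genes is a description only. *HIF1A* was the exception. Together the 8 genes took 0.222% of all fragments in R-U87MG si-NC, 0.214% in R-U87MG si-HDAC6, 0.902% in U87MG si-NC and 0.692% in U87MG si-*LINC00461*. In RNA from whole cultures, fewer cells with a high level and a lower level in every cell cannot be told apart.

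**Figure D1:**
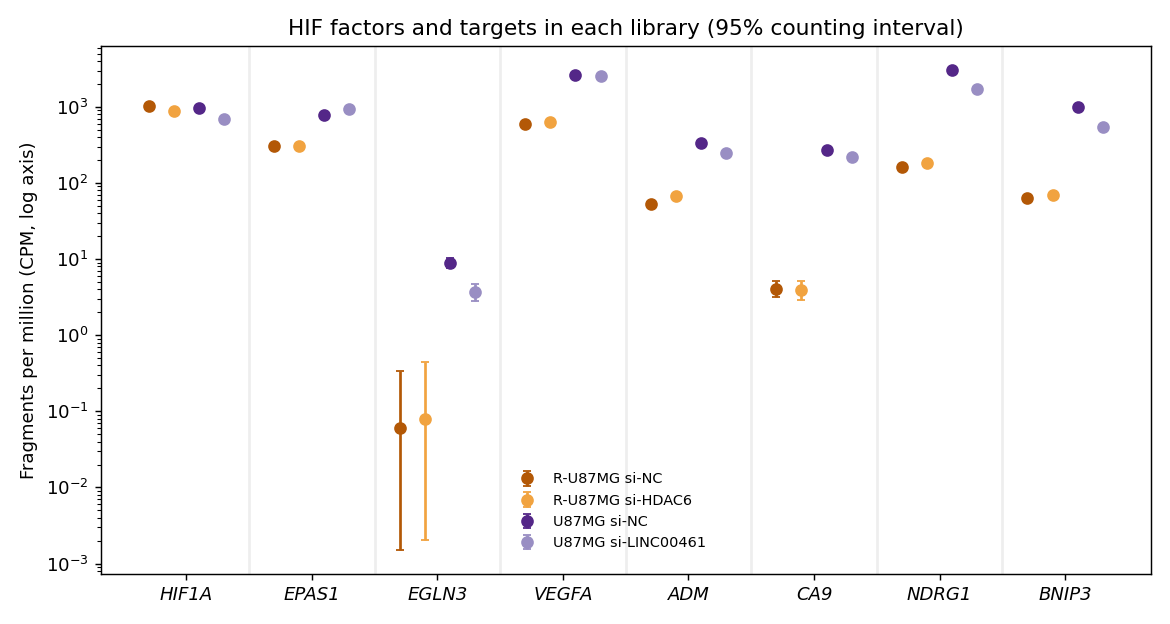
CPM (log axis) of each of the 8 genes in the 4 libraries, with points for the level and bars for the exact 95% counting interval, which is narrower than the point for most genes. The R-U87MG libraries (orange shades) lie under the U87MG libraries (purple shades) for every gene except *HIF1A*, whose 4 values range from 687 to 1031 CPM.

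The alpha subunits differed from each other. *HIF1A*, the oxygen-regulated subunit of HIF-1, had 17152 fragments in R-U87MG si-NC, 11202 in R-U87MG si-HDAC6, 19542 in U87MG si-NC and 12211 in U87MG si-*LINC00461*, which are 1031, 889, 976 and 687 CPM, respectively. These 4 levels lay within 2-fold of each other, and neighbours in their order did not overlap in their counting intervals. *EPAS1*, which encodes the subunit of HIF-2, had 5130, 3810, 15853 and 16632 fragments in the same order of libraries, or 308, 302, 792 and 936 CPM. Its 2 R-U87MG levels overlapped in their intervals, and both U87MG levels were far above them. Per kilobase of annotated exon, the CPM of *HIF1A* were 4.74 times those of *EPAS1* in R-U87MG si-NC and 4.18 times in R-U87MG si-HDAC6, against 1.75 times in U87MG si-NC and 1.04 times in U87MG si-*LINC00461*. *HIF1A* spans chr14:61695513-61748259 (plus strand) and *EPAS1* chr2:46293667-46386703 (plus strand) in GENCODE 29 on GRCh38. The antisense gene *HIF1A-AS1*, which overlaps *HIF1A*, had 0 to 9 fragments. Whether the counting used strand is not given in the sources used here.

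*EGLN3*, the prolyl hydroxylase that marks alpha subunits and is itself a HIF target, was the lowest of the 8 genes per kilobase in every library. It had 1 fragment in each R-U87MG library, 180 in U87MG si-NC and 65 in U87MG si-*LINC00461*. The R-U87MG values of 0.0601 and 0.0794 CPM lie under the floor of 3 fragments (0.180 and 0.238 CPM), so *EGLN3* was not detectable at this depth in R-U87MG. Its annotated span, chr14:33924231-34462774 (minus strand), holds *SPTSSA* on the same strand, which had 531, 400, 400 and 278 fragments. *SPTSSA* was not low where *EGLN3* was.

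The secreted ligands were *VEGFA*, the main growth factor of blood vessels, and *ADM*, the vasodilator peptide adrenomedullin. *VEGFA* had 9894 fragments in R-U87MG si-NC, 7887 in R-U87MG si-HDAC6, 52342 in U87MG si-NC and 45409 in U87MG si-*LINC00461* (595, 626, 2613 and 2554 CPM). The gap between the lines was far wider than the gap within either pair. *ADM* had 875, 843, 6702 and 4427 fragments (52.6, 66.9, 335 and 249 CPM). The positions are chr6:43770184-43786487 for *VEGFA* and chr11:10304680-10307397 for *ADM*, both on the plus strand.

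*CA9*, the membrane carbonic anhydrase that acidifies the outside of hypoxic cells, had 68 fragments in R-U87MG si-NC, 49 in R-U87MG si-HDAC6, 5408 in U87MG si-NC and 3910 in U87MG si-*LINC00461*. The levels were 4.09, 3.89, 270 and 220 CPM, and the R-U87MG intervals (3.17 to 5.18 and 2.88 to 5.14 CPM) overlapped. *CA9* thus had fragments in R-U87MG, but close to the filter of 1 CPM. It spans chr9:35673856-35681159 (plus strand) and overlaps *ARHGEF39* on the other strand, which had 145, 106, 131 and 58 fragments. How reads of the overlap were divided was not tested. In U87MG *CA9* had many times the fragments of *ARHGEF39*, whereas in both R-U87MG libraries *ARHGEF39* had more than *CA9*. Whether the few *CA9* fragments in R-U87MG came from *CA9* transcripts was not tested.

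*BNIP3* encodes a mitochondrial outer membrane protein that acts in mitophagy, and *NDRG1* a cytoplasmic protein raised by hypoxia, iron loss and other stresses. *BNIP3* had 1068, 882, 19880 and 9690 fragments (64.2, 70.0, 993 and 545 CPM) in the same order of libraries, and its R-U87MG intervals overlapped. Its position is chr10:131966455-131982013 (minus strand).

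*NDRG1* had 2675, 2279, 60826 and 30604 fragments (161, 181, 3037 and 1722 CPM). It was the gene with the widest range of levels among those with at least 100 fragments in every library, at 4.24 on the log2 CPM scale. Per kilobase of exon, *NDRG1* stood first of the 8 genes in U87MG si-NC at 309 CPM per kilobase, before *HIF1A* at 189, and at rank 5 in R-U87MG si-NC at 16.4. In both R-U87MG libraries *HIF1A* stood first, at 200 and 173 CPM per kilobase. The exon length covers all annotated transcripts of a gene, 9823 bases for *NDRG1* and 5151 for *HIF1A*. Ranks between genes therefore depend on the annotation as well. The position of *NDRG1* is chr8:133237171-133302022 (minus strand).

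The profile of *NDRG1* over the 4 libraries was set beside those of the other 13368 genes with a mean of at least 1 CPM, by the Euclidean distance of log2 CPM centred on each gene's mean. The nearest were *PPM1J* at 0.24, *GPR146* at 0.26, *BNIP3* and *NIM1K* at 0.29 and *KCNE4* at 0.32. *BNIP3* was the only one of the 8 among them, at rank 3. *ADM* came at rank 230, *VEGFA* at 350, *EGLN3* at 521, *CA9* at 627, *EPAS1* at 753 and *HIF1A* at 5848. The likeness rests on 4 libraries, and *PPM1J* had only 5 and 4 fragments in the R-U87MG libraries.

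The comparison of R-U87MG si-NC with U87MG si-NC addresses how the lines differ without either knockdown. The 2 libraries came from pairs that the authors scaled separately, so the line, the TMZ in its medium and whatever else differed between the pairs cannot be told apart. A gene was counted as past 2-fold when its mean in the 2 libraries was at least 1 CPM and its ratio, scaled with TMM (trimmed mean of M-values), was at least 2-fold. Of the 8 genes, 7 were at least 2-fold lower in R-U87MG and 0 were higher, whereas of 13349 genes compared 15.0% were lower and 11.2% higher. Because the 8 were chosen with earlier results of these data known, their distance from these shares is a description and no independent support. Their median log2 ratio was −3.57, and that of all genes was 0.02. With total counts in place of TMM the median of all genes moved to 0.28, and genes past 2-fold went from 1494 higher and 2008 lower (42.7% higher) to 2399 higher and 1494 lower (61.6% higher). The same 7 of the 8 genes were lower under either scaling, and the median of the 8 was −3.31 with total counts. Some markers also differed between these libraries. *OLIG2* was at 5.53 CPM in R-U87MG si-NC and 0.749 CPM in U87MG si-NC. Of the other glioma and neural markers, *VIM* was at 6563 and 6327 CPM, *CD44* at 1770 and 1604 and *NES* at 37.4 and 42.6. *GFAP* had 0 fragments against 5, *SOX2* 0 against 2 and *S100B* 4 against 0. Of the endothelial markers, *TEK* had 2 fragments against 85 and *PECAM1* 27 against 52. *VWF* went the other way with 26 against 8, and *CDH5* had 6 against 7. The 7 glioma and neural markers summed to 8377 and 7975 CPM, and the 4 endothelial markers to 3.67 and 7.59 CPM. Their part in the ratios was not tested.

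*CA9* had a log2 ratio of −6.30 (−6.68 to −5.97), a 78.8-fold lower level in R-U87MG, and was the 102nd lowest of the genes compared. *NDRG1* was 22.7-fold lower (log2 −4.50, −4.56 to −4.45) and *BNIP3* 18.6-fold lower (−4.21, −4.30 to −4.13). For *EGLN3* the log2 ratio was −6.91, with a counting interval of −12.80 to −4.99 that reflects the 1 fragment in R-U87MG. These 4 genes had the largest differences of the 8. *ADM* was 7.64-fold lower (−2.93, −3.04 to −2.83), *VEGFA* 5.28-fold (−2.40, −2.43 to −2.37) and *EPAS1* 3.08-fold (−1.62, −1.67 to −1.58). *HIF1A* had a log2 ratio of −0.18 (−0.21 to −0.15), which turned to 0.08 with total counts, so that its direction is not determined.

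**Figure D2:**
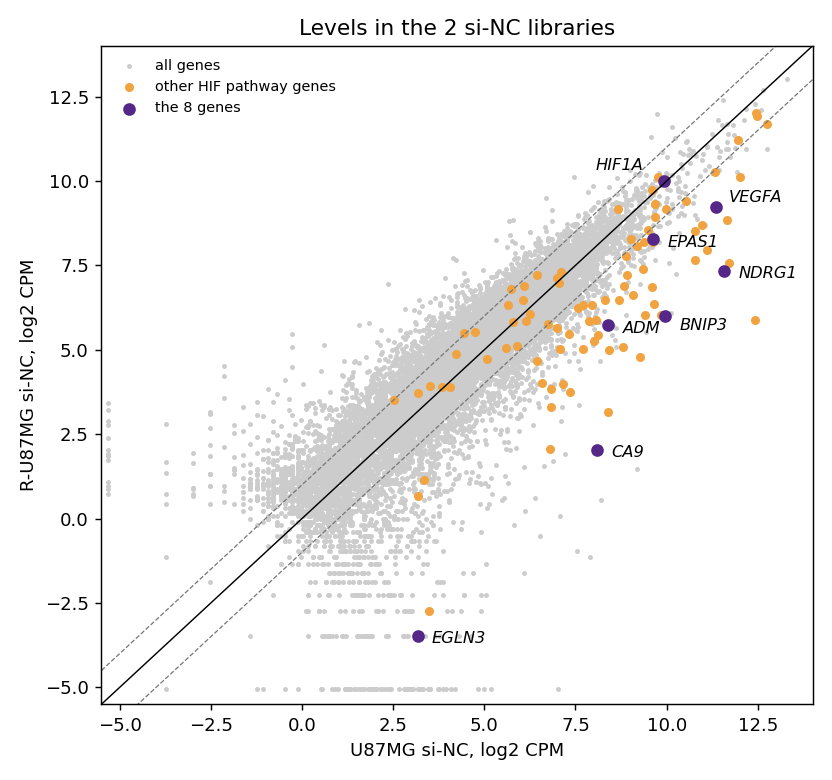
Log2 CPM of 13369 genes in U87MG si-NC (horizontal) and R-U87MG si-NC (vertical), over library totals, with grey points for all genes, orange points for other genes of the HIF pathway and purple points for the 8 genes. The solid line marks equal levels and the dashed lines 2-fold, and 7 of the 8 genes lie under the lower dashed line while *HIF1A* lies at the solid line.

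The other pathway genes were grouped in lists by role, and these lists too were chosen with earlier results of these data known. Of 95 such genes, 85 could be compared between the lines, of which 56 were at least 2-fold lower in R-U87MG and 0 higher. Of all 13349 genes compared, 15.0% were lower and 11.2% higher. The median log2 ratio of the 85 was −1.62. *PDK1* and *SLC16A3* stand in the glycolysis list and also in another list, so the list counts overlap. The enzymes and transporters of glucose uptake and glycolysis were lower in 21 of 23 cases (median −2.11). Examples were the glucose transporter *SLC2A1* at −3.53, *PGK1* at −2.52 and *LDHA*, which makes lactate, at −2.16, and the regulator *PFKFB4* was lowest at −3.99. *HK1*, the hexokinase most cells carry, was nearest to 0 at −0.14. The list includes *GAPDH*, a common reference gene, which had 54744 fragments in R-U87MG si-NC and 136553 in U87MG si-NC (−1.32).

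Further HIF targets were lower in 21 of 22 cases (median −2.40). The counts of this and the following lists stand beside 15.0% of all genes lower and 11.2% higher. The lowest was *HILPDA*, a lipid droplet protein, at −5.48, followed by *PPFIA4* at −5.01 and *ZNF395* at −4.75, and the transferrin receptor *TFRC* was the one gene not lower, at 0.26. The values of *HILPDA* and *ZNF395* were not whole fragments in every library and are rounded estimates. Among secreted factors, 6 of 10 were lower, led by *IGFBP3*, which binds insulin-like growth factors, with 988 fragments against 109623 (−6.79). *LOXL2* and *LOX*, enzymes that crosslink collagen, were at −4.41 and −3.40, and *VEGFC*, the lymphatic growth factor, was at 0.44. In the mitochondrial list 5 of 7 were lower, with *MXI1* at −3.77, the *BNIP3* paralog *BNIP3L* at −3.01 and *HIGD1A* at 0.52. For pH regulation 3 of 6 were lower, with the lactate exporter *SLC16A3* at −3.65, the carbonic anhydrase *CA12* at −3.39 and the bicarbonate transporter *SLC4A7* highest at 0.49.

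Beside *EPAS1* and *EGLN3*, described above, the lists of regulators held few genes past 2-fold. Of all genes compared, 15.0% were lower and 11.2% higher. In the list of oxygen sensing and HIF degradation, 1 of the other 11 genes passed, the main prolyl hydroxylase *EGLN1* (1344 against 4200 fragments, −1.64), while *CUL2* was highest at 0.83. *VHL* was at −0.57 and *HIF1AN*, the asparagine hydroxylase, at −0.13. Of the other subunits and coactivators, 1 of 5 passed, *HIF3A* with 2 fragments against 223, a log2 ratio of −6.48 and an interval of −9.85 to −4.93. The beta subunit *ARNT* was at −0.46 and its relative *ARNT2* was highest at 0.79. Of the VEGF and adrenomedullin receptors 3 of 8 could be compared, *KDR* at 0.71, *NRP1* at 0.09 and *NRP2* at −0.99, and none passed. Of the relatives of *NDRG1*, *NDRG4* was lower (−1.77) and *NDRG2* higher (1.07, from 59 and 28 fragments). Over all 4 libraries, both R-U87MG libraries were at least 2-fold under both U87MG libraries for 42 of 84 other pathway genes and over them for 0, beside 7.55% and 10.7% of all genes.

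In R-U87MG, si-HDAC6 was compared with si-NC to see what HDAC6 depletion changes. Of the 7 genes that could be compared, 0 were at least 2-fold higher and 0 lower, beside 0.694% higher and 0.747% lower of 13120 genes. Their median log2 ratio was 0.06, and that of all genes was −0.01. *EGLN3*, with 1 fragment in each library, was not compared. With so few genes past 2-fold anywhere, a count of 0 is near the background.

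The largest of the ratios was that of *ADM*, at 0.34 (0.20 to 0.48), with 875 fragments in si-NC and 843 in the smaller si-HDAC6 library. *NDRG1* was at 0.16 (0.08 to 0.24) and *VEGFA* at 0.06 (0.02 to 0.11), both with intervals above 0. *HIF1A* was at −0.22 (−0.26 to −0.19), the only interval below 0. Those of *BNIP3* (0.12, −0.01 to 0.25), *EPAS1* (−0.04, −0.10 to 0.02) and *CA9* (−0.08, −0.64 to 0.47) held 0, and with 68 and 49 fragments that of *CA9* leaves room for a difference of up to 0.64 downward. An interval beyond 0 was common, since the interval lay above 0 for 13.8% of all genes and below 0 for 16.4%. Differences of this size cannot be told from those between replicate cultures without replicates.

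The other pathway genes gave 0 higher and 0 lower of 83 compared, with a median of 0.00. Their ratios ran from −0.48 for *PGF*, the placental growth factor, to 0.40 for *ANGPTL4*, a secreted inhibitor of lipoprotein lipase. In the glycolysis list the extremes were *ALDOC* at 0.36 and *PDK1*, the kinase that shuts pyruvate out of the mitochondrion, at −0.41, which was also the lowest of the mitochondrial list, where *FAM162A* was highest at 0.17. *ANKRD37* at 0.39 and *ERO1A* at −0.32 bounded the further targets, *ELOB* at 0.28 and *CUL2* at −0.20 the degradation list, *EP300* at 0.06 and *ARNT2* at −0.27 the subunits and coactivators, and *BSG* at 0.13 and *CA12* at −0.22 the pH list. *NRP2* at −0.01 and *KDR* at −0.22 bounded the receptors. *NDRG4* at 0.06 and *NDRG3* at −0.05 bounded the NDRG relatives.

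In U87MG, si-*LINC00461* was compared with si-NC to see what *LINC00461* depletion changes. Of the 8 genes, 1 was at least 2-fold lower and 0 were higher, beside 8.17% lower and 5.42% higher of 13210 genes. The median log2 ratio of the 8 was −0.45, and that of all genes was 0.00. The counting interval lay below 0 for 6 genes, above 0 for *EPAS1* and held 0 for *VEGFA*, while 33.4% of all genes lay below 0 and 33.1% above it. This comparison and that between the lines share the U87MG si-NC library, so their ratios are not independent of each other.

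*EGLN3* was the gene past 2-fold, with 180 fragments in si-NC and 65 in si-*LINC00461* (log2 −1.28, −1.71 to −0.87), and its interval reaches inside 2-fold. *BNIP3* followed at −0.85 (−0.88 to −0.81) and *NDRG1* at −0.80 (−0.82 to −0.78), which are 1.80-fold and 1.75-fold lower levels. *HIF1A* was at −0.49 (−0.52 to −0.46), *ADM* at −0.41 (−0.47 to −0.36) and *CA9* at −0.28 (−0.34 to −0.22). Among all genes, 10.5% had a lower ratio than *BNIP3* and 20.4% a lower ratio than *HIF1A*. *VEGFA* did not differ beyond counting error (−0.02, −0.04 to 0.00). *EPAS1* was higher by 0.26 (0.22 to 0.29), so that the alpha subunits had opposite signs.

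**Figure D3:**
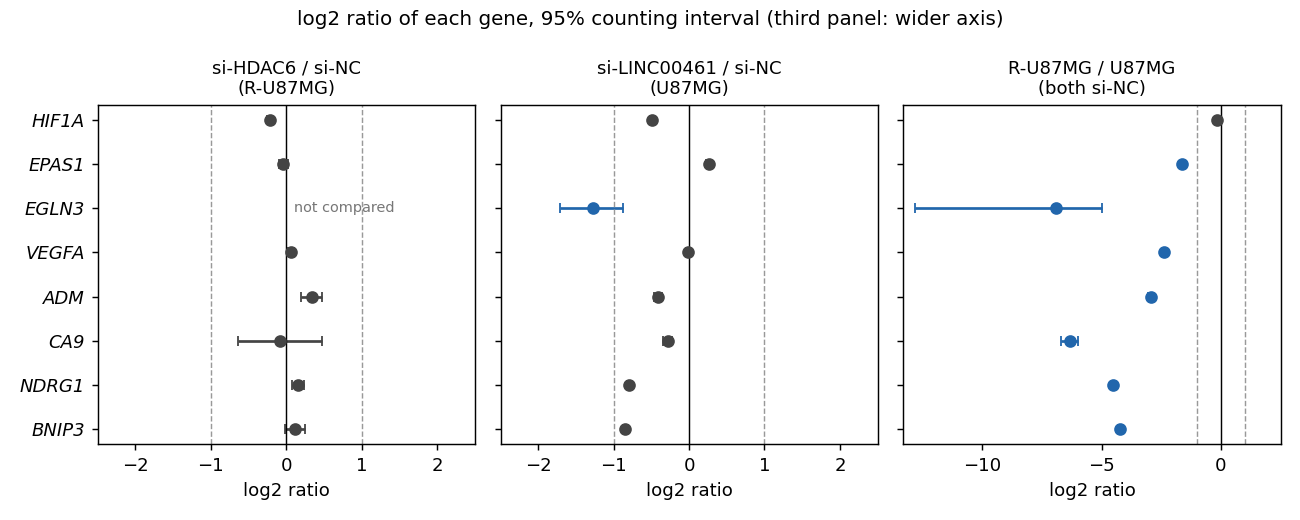
TMM-scaled log2 ratios of the 8 genes in the 3 comparisons, with exact 95% counting intervals, blue for genes at least 2-fold lower, and dashed lines at 2-fold. All points lie within 2-fold for si-HDAC6, *EGLN3* alone lies past it for si-*LINC00461*, and every gene except *HIF1A* lies past it between the lines, where the horizontal axis is wider.

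Of 84 other pathway genes compared after si-*LINC00461*, 2 were at least 2-fold higher and 9 lower, with a median log2 ratio of −0.18. In the glycolysis list 18 of 23 ratios were below 0 and 5 above it (median −0.37), while 49.8% of all genes had a ratio above 0, and 2 genes passed, the enolase *ENO1* at −1.23 (79183 against 29711 fragments) and *PDK1* at −1.10, while *SLC2A3* was highest at 0.78. *SLC2A1* was at −0.87 and *LDHA* at −0.84. Of the further targets, 3 of 22 were lower, *HILPDA* at −1.84, the circadian repressor *BHLHE41* at −1.35 and *ZNF395* at −1.14, and their median was −0.05 with *ANKRD37* highest at 0.77. Of the secreted factors, *LOX* at −1.46 and *STC2* at −1.26 passed and *VEGFC* was highest at 0.41. The VEGF co-receptor *NRP2* was lower (−1.33) and *NRP1* was at 0.43. The bicarbonate transporter *SLC4A4* was the lowest of all at −2.20, from 373 and 71 fragments, and *SLC4A7* was highest of its list at 0.84.

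Of the genes that were higher, *ARNT2* was at 1.01 (436 against 774 fragments) and *FUNDC1*, a mitophagy receptor, at 1.19 (180 against 360). *ARNT* was at 0.87 and *VHL* at 0.93, just short of 2-fold, while *HIF3A* at −0.66 and *ELOC* at −0.50 were the lowest of their lists. *NDRG2* was higher at 1.41, from 28 and 66 fragments, and *NDRG4* was at −0.32. The shares of pathway genes past 2-fold, 9 lower and 2 higher of 84, stood beside the 8.17% and 5.42% of all genes. The 4 endothelial markers summed to 7.59 CPM in U87MG si-NC and 30.2 CPM in U87MG si-*LINC00461*, of which *PECAM1* made 24.4. The 7 glioma and neural markers summed to 7975 and 4943 CPM, of which *VIM* made 6327 and 3170. *CD44* was at 1604 and 1728 CPM and *NES* at 42.6 and 43.0, and the rest were each at most 1.01 CPM. The part of these markers in the ratios above was not tested.

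**Figure D4:**
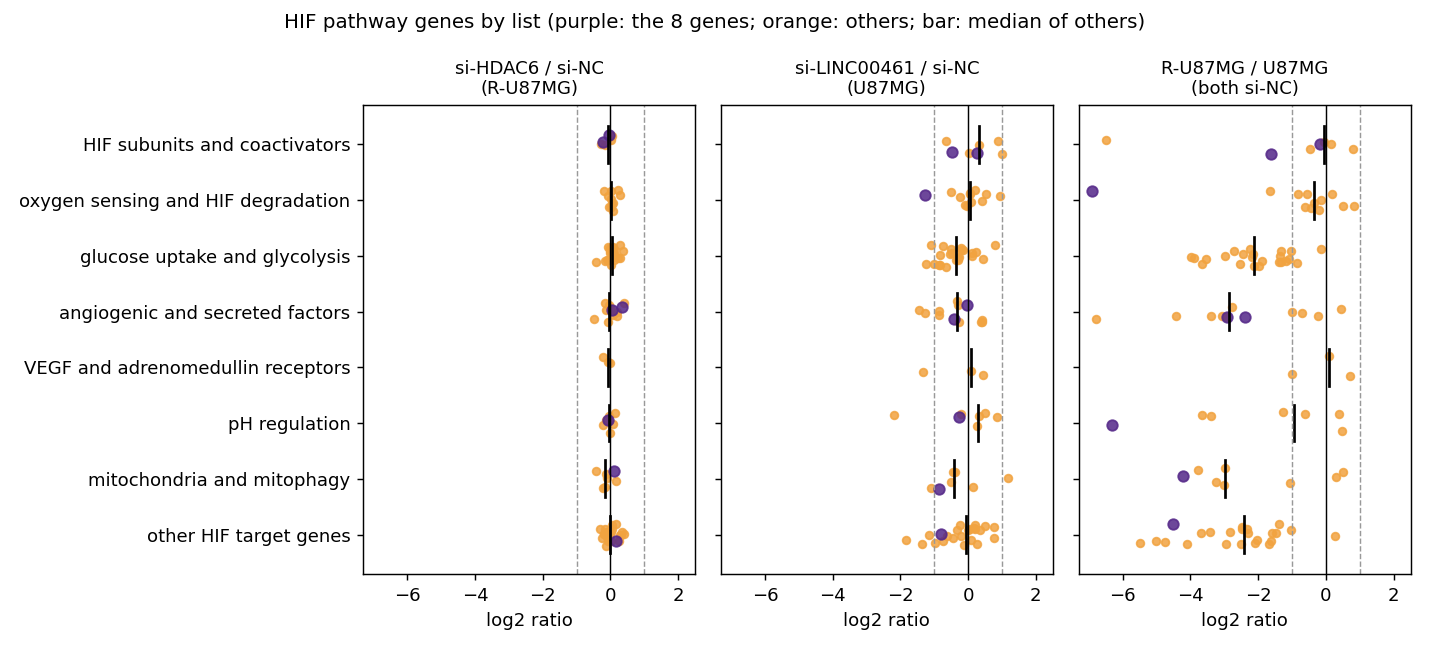
Log2 ratios of HIF pathway genes with a mean of at least 1 CPM, by list, in the 3 comparisons, with purple points for the 8 genes, orange points for the others, black bars for the median of the others and dashed lines at 2-fold. Points gather near 0 for si-HDAC6 and spread to both sides for si-*LINC00461*. For the lines they lie mostly under −1 in the glycolysis list (median −2.11) and among the further targets (median −2.40). The 3 receptors run from −0.99 to 0.71 between the lines (median 0.09).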

How the data were processed

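The authors made strand-specific RNA-seq libraries of total RNA, 1 per group and 4 in all. The submitters' processing notes name bcl2fastq, Trimmomatic 0.36, HISAT2 and the build GRCh38.p13. The counting program and annotation are not given in the sources used here. The deposited values are estimated counts per gene that the authors multiplied by 1 factor per library (0.869 and 1.15 in the R-U87MG pair, 0.939 and 1.06 in the U87MG pair). Each was divided by its factor and rounded to fragments. Of values above 0, 94.2% to 94.5% lay near a whole number, the 8 genes among them in every library. The margin was 0.02, or wider for large values, whose printed digits are limited. For the largest values, such as *NDRG1* and *VEGFA* in U87MG si-NC, the margin was so wide that the check could not fail. Of the other pathway genes named, *PFKFB4*, *HILPDA*, *ZNF395* and *HIGD1A* were not near a whole number in every library, so their fragments are rounded estimates. Totals were 16639551, 12596072, 20027866 and 17777046 fragments for R-U87MG si-NC, R-U87MG si-HDAC6, U87MG si-NC and U87MG si-*LINC00461*. Of 58213 shared IDs, 57875 had a GENCODE 29 symbol, and 13 IDs were in 1 pair of files only.

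CPM were taken over these totals. Log2 ratios used fragments plus 0.5 over TMM effective sizes (edgeR 4.0.16, R 4.3.3), which understates the change of low genes. Intervals are exact (Clopper-Pearson) at 95%, and cover counting error only, since PCR copies are not independent molecules. Genes entered a comparison from a mean of 1 CPM. A count of 0 allows up to 3 fragments (0.150 to 0.238 CPM). With 1 library per group no test was made. Scaling by total counts, by size factors of DESeq2 1.42.0 and by upper quartiles were tried, as were other pseudocounts, filters and folds, thinned libraries and the values as deposited. Leaving out genes without a whole fragment number was added after seeing the data. The script was tested on simulated data. Named genes were the 8, the siRNA targets and in each list the extremes. Pathway genes past 2-fold were all named after si-*LINC00461*, but only in part between the lines. Further examples were chosen after their values were seen. The 8 genes and the lists were chosen with earlier results of these data known. Python 3.11.15, numpy 2.4.6, pandas 2.3.3, scipy 1.17.1 and matplotlib 3.10.9 were used.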

Additional observations from a re-analysis of the deposited data

How the results depend on the processing

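Alternatives were run for the 8 genes and for the counts over all genes, not for each other pathway gene. None of the 8 changed direction in a comparison in which it was past 2-fold. The 7 genes lower in R-U87MG stayed 7 under every scaling, pseudocount and fold tried, and were 6 when a mean of 5 CPM was asked for, which leaves out *EGLN3*. The median of the 8 moved from −3.57 to −3.31 with total counts, and that of the 7 compared under that filter was −2.93. After si-*LINC00461*, 3 of the 8 genes were lower at 1.5-fold and 0 at 3-fold, beside 2222 and 444 of the 13210 genes compared. *VEGFA* after si-*LINC00461* ran from −0.05 to 0.01, and *EGLN3* between the lines was −4.94 with a pseudocount of 5.

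Counts over all genes moved with the filter and the fold. For si-HDAC6, genes higher were 2464 with no filter, 16 with a mean CPM of at least 5, 352 at 1.5-fold and 22 at 3-fold, and genes lower were 3050, 16, 330 and 19, and 43 with a pseudocount of 5. For si-*LINC00461*, genes higher were 3799 with no filter, 442 with a mean CPM of at least 5, 1871 at 1.5-fold and 254 at 3-fold, and genes lower were 4243 with no filter, 2222 at 1.5-fold and 444 at 3-fold. Between the lines, genes higher were 2399 with total counts, 4772 with no filter, 3077 at 1.5-fold and 524 at 3-fold, and genes lower were 5793, 3346 and 1084 at the last 3 of these. The cause was not tested. No paired analysis was possible because each group has 1 library. Depth limits *EGLN3* and *HIF3A*, which had 0 to 2 fragments in R-U87MG.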
